A study of Mus musculus with 24 samples.

Results

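Collagen is secreted as a precursor and becomes a stable fiber only after a series of enzymatic steps, and the genes examined here encode the proteins that carry out those steps. They are 4 lysyl oxidases (Lox, Loxl1, Loxl2 and Loxl4), 2 lysyl hydroxylases (Plod1 and Plod2), 2 catalytic alpha subunits of collagen prolyl 4-hydroxylase (P4ha1 and P4ha2), the collagen chaperone Serpinh1 and the procollagen C-proteinase enhancer Pcolce. The 10 genes were selected by symbol, and each matched 1 of the 56205 gene rows of the count table.

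Poly(A) RNA from whole liver was sequenced in 24 C57BL/6J mice. For 20 weeks, 12 of them ate a diet deficient in methionine and choline (MCD) and the other 12 a control diet, which the labels call chow and the study's methods list as a control formulated for the MCD diet. All were wild type, and both sexes were used in equal number (6 animals per sex per diet), although the labels give neither sex nor age for a single library. Mice lacking methionine and the phospholipid precursor choline develop steatohepatitis and liver fibrosis, and the study's methods list the formulation as high in fat.

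Inside the endoplasmic reticulum, prolyl 4-hydroxylase makes the 4-hydroxyproline that keeps the collagen triple helix stable at body temperature, and lysyl hydroxylases make the hydroxylysine from which the strongest crosslinks form. The chaperone HSP47, encoded by Serpinh1, binds the folded triple helix on its way to the Golgi. After secretion, the C-propeptide is removed by BMP1-type proteinases with the help of the enhancer encoded by Pcolce, and copper-dependent lysyl oxidases convert lysine and hydroxylysine into the aldehydes that crosslink fibers. In the liver, hepatic stellate cells and portal fibroblasts are the main collagen-producing cells, and crosslinked scar is slow to degrade.

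Of the 10 genes, 7 rose in MCD livers and 0 fell. The risers were Lox, Loxl1, Loxl2, Plod2, P4ha1, Serpinh1 and Pcolce, and their increases ran from 1.47-fold for P4ha1 to 10.6-fold for Lox. Loxl4, Plod1 and P4ha2, each a close relative of a gene that rose, did not pass the test. A gene was called when edgeR's quasi-likelihood test gave a false discovery rate (FDR, Benjamini-Hochberg) of at most 0.01 and its log2 fold change exceeded 0.5 in size. By the same rule 19.2% of the 14109 genes tested were called higher and 19.1% lower. For 4 of the 10 (Lox, Loxl1, Plod2 and Serpinh1) every MCD library lay above every control library, which held for 9.5% of all genes tested. The median log2 fold change was 1.16 over the 10 genes and -0.10 over all genes tested. In whole tissue, a larger number of cells of a type and more RNA per cell cannot be told apart.

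**Figure D1:**
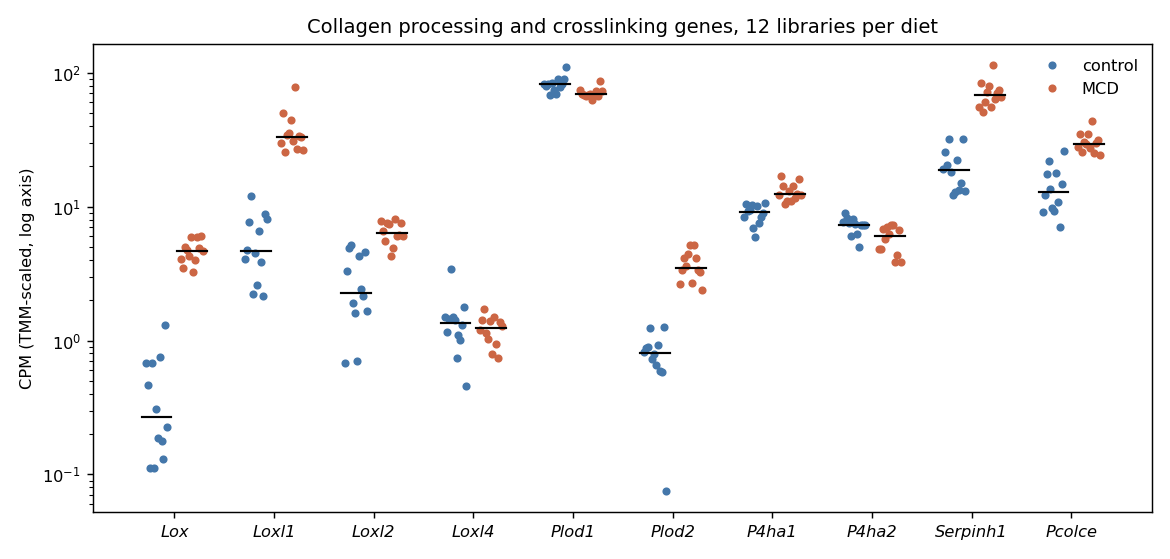
Expression of the 10 genes in CPM (read counts divided by TMM-scaled library size, log axis) in 12 control livers (blue) and 12 MCD livers (orange), 1 point per library and a black line at the median. The groups are fully separate for Lox, Loxl1, Plod2 and Serpinh1, nearly so for P4ha1, and overlap broadly for Loxl4 and Plod1.

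Total counts ran from 16793207 to 24915175 in control and from 16388650 to 24577848 in MCD libraries, so that 3 counts, taken as the floor of detection, correspond to 0.109 to 0.227 CPM. TMM factors were lower in every control library (0.642 to 0.973) than in any MCD library (1.07 to 1.26), and this bears on every small difference below. On the scale of total counts alone, the median of all tested genes moved up by 0.37 on the log2 scale and calls changed from 2712 higher and 2688 lower to 4539 higher and 848 lower. The 7 risers were called under each of the 4 scalings tried. Control replicate 12 had the lowest scaling factor, and its values stand out for several of the genes described here.

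Promoter sequences of P4ha1 and P4ha2 are shown because these paralogs catalyze the same reaction and moved apart with diet. The 250 bases before each RefSeq start site are given 5′ to 3′ on the gene's own strand (build GRCm38.p6). Capitals mark ACGTG or GCGTG, on either strand, the core letters recognized by hypoxia-inducible factors (HIF). Serpinh1 is shown beside them as the only collagen chaperone of the group, and because its product belongs to the heat shock proteins.
P4ha1 (chr10:59323046-59323295, plus strand): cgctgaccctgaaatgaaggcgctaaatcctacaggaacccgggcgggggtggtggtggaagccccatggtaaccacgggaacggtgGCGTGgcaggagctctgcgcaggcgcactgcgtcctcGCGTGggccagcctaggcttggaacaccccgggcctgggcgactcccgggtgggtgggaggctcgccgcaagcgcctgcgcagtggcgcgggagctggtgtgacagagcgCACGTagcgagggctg
P4ha2 (chr11:54100674-54100923, plus strand): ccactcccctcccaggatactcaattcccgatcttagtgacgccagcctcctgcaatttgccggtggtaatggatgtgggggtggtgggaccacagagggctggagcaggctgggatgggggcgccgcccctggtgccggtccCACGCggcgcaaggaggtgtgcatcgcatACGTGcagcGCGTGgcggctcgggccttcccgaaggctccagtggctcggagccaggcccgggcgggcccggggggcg
Serpinh1 (chr7:99353240-99353489, minus strand): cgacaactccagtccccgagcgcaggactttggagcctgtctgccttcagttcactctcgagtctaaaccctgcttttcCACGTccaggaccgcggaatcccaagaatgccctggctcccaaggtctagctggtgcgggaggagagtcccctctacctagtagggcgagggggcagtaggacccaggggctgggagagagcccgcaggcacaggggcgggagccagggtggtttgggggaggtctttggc
The core occurred 3 times in the P4ha1 window, at 163, 126 and 16 bases before the start site, and 3 times in the P4ha2 window, at 107, 78 and 69 bases before it. At least 3 matches were found in 6.58% of 32851 windows of the same length across the genome, and at least 1 in 38.6%. The Serpinh1, Plod1, Loxl4 and Pcolce windows held 1 match each. Windows were read for 6 of the 10 genes, and Lox, Loxl1, Loxl2 and Plod2 were not among them. The palindromic heat shock element GAANNTTC, searched on both strands, was absent from all 6 windows and present in 6.69% of all windows. The RefSeq start site of P4ha2 lies 829 bases inside the gene as annotated by GENCODE, and that of Pcolce 2380 bases inside, so these windows precede an internal start, whereas those of P4ha1 and Serpinh1 end at the annotated gene start. These are letter matches in short windows and nothing was measured at them.

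The lysyl oxidases were the family with the largest diet difference. Lox (ENSMUSG00000024529), the founding member of the family and a main crosslinking enzyme of type I collagen and elastin, was almost silent in control livers. It ranged from 0.112 to 1.30 CPM in control (median 0.267) and from 3.26 to 5.99 CPM in MCD livers (median 4.69). Every MCD library exceeded every control library. In counts, control libraries held 2 to 29 reads, with 3 counts or fewer in 5 of 12, and MCD libraries 81 to 136. Lox rose by 3.40 on the log2 scale (SE 0.29, edgeR FDR 2.22e-10), or 10.6-fold, with a 95% interval of 6.97 to 15.97.

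Loxl1 (ENSMUSG00000032334, chr9:58287738-58313186), which is needed for elastic fiber assembly and also crosslinks collagen, was the most abundant lysyl oxidase per kilobase of exon in both diets. Control livers ranged from 2.15 to 12.05 CPM (median 4.63) and MCD livers from 25.6 to 78.5 CPM (median 33.1). The groups were fully separate, and MCD replicate 8 stood above the other MCD livers, the next of which was at 49.6 CPM. Its rise was 2.73 on the log2 scale (SE 0.26, edgeR FDR 1.12e-09), and it stayed between 2.61 and 2.89 when any 1 library was left out.

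Loxl2 (ENSMUSG00000034205, chr14:69609068-69695834), a scavenger-receptor-domain lysyl oxidase that acts on type IV collagen of basement membranes as well as on fibrillar collagen, rose less. It ranged from 0.682 to 5.15 CPM in control (median 2.28) and from 4.26 to 8.09 CPM in MCD livers (median 6.36). The groups overlapped, with 3 control libraries above the lowest MCD library. Its log2 fold change of 1.21 passed the test (SE 0.25, edgeR FDR 0.00016). A run of 5.57% of its exon bases also carries an antisense transcript, Gm27177, and whether the counting used strand is not given in the sources used here.

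Loxl4 (ENSMUSG00000025185, chr19:42593982-42612813), the closest relative of Loxl2 in this group by domain structure, did not pass the test. Its control livers ranged from 0.454 to 3.39 CPM (median 1.36) and its MCD livers from 0.738 to 1.71 CPM (median 1.24). All MCD values lay inside the control range. Its log2 fold change came to -0.22 (SE 0.22, edgeR FDR 0.392), with a 95% interval from -0.67 to 0.23, and it was 0.11 (FDR 0.712) with total counts alone.

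Lox, Loxl1 and Loxl2 rose by different amounts and Loxl4 was not called, and the makeup of the family differed between the diets. On the scale of CPM per kilobase of exon, and with Loxl3 included, the summed level of the family went from 3.48 ± 1.62 in control to 15.6 ± 4.83 in MCD livers (SD, n = 12 each), with ranges of 1.71 to 7.10 and 11.7 to 28.9 that did not overlap. The share of Loxl1 in that sum was 47.4% ± 8.78 in control and 71.4% ± 4.77 in MCD livers. Lox held 2.50% ± 1.60 and 6.74% ± 2.10. The shares of Loxl4 (10.3% ± 3.99 against 1.93% ± 0.63), Loxl2 (a mean of 14.5% against 8.12%) and Loxl3 (25.3% ± 5.51 against 11.8% ± 1.24) were smaller in MCD livers. Exons of the protein-coding Htra2 on the other strand cover 11.6% of the exon bases of Loxl3, which touches the Loxl3 values and every share of this sum. Ratios of reads within a library do not depend on library scaling and were tested by permuting the diet labels (100000 resamples, two-sided, adjusted over 18 ratios). The log2 ratio of Loxl4 to Loxl1 was lower in MCD livers, with a difference of -2.96 (adjusted p = 3.27e-05), as was that of Loxl4 to Loxl2, with -1.58 (adjusted p = 3.27e-05). Loxl2 to Loxl1 was also lower, with -1.39 (adjusted p = 0.000138). For Loxl1 to Lox the difference was -0.88 (adjusted p = 0.0105), but it was -0.11 (adjusted p = 0.715) with a pseudocount of 5 in place of 0.5, since control livers hold so few Lox reads.

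**Figure D2:**
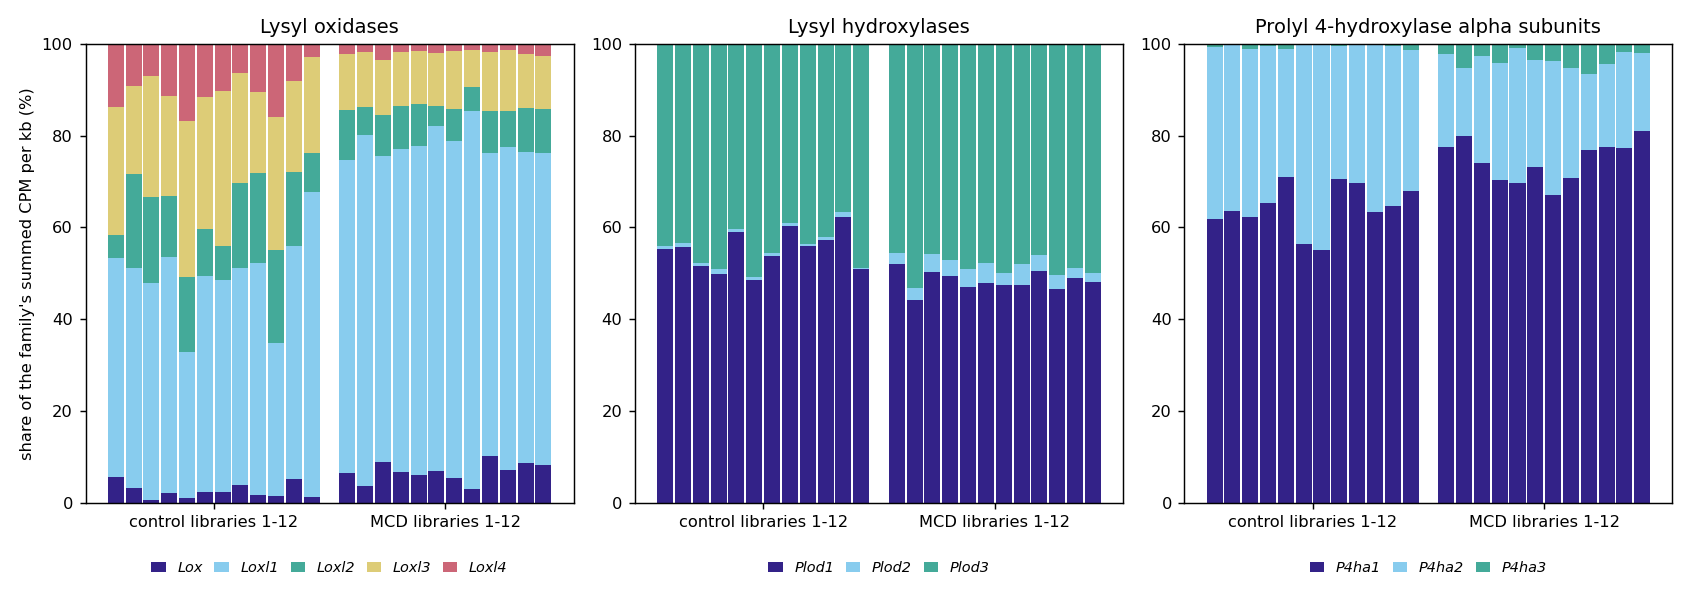
Share of each paralog in the summed expression of its family (CPM per kilobase of exon, %), 1 bar per library, for lysyl oxidases, lysyl hydroxylases and prolyl 4-hydroxylase alpha subunits. Loxl1 fills 66.3% to 82.5% of the lysyl oxidase bar in MCD livers, Plod2 stays a thin band that is wider in every MCD library, and P4ha1 takes a larger and P4ha2 a smaller mean share in MCD livers.

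Of the lysyl hydroxylases, Plod2 rose and Plod1 was not called. Plod2 (ENSMUSG00000032374, chr9:92542223-92608428) encodes the enzyme that hydroxylates lysines in the collagen telopeptides, the step that directs crosslinks toward the hydroxyallysine route. It ranged from 0.0757 to 1.25 CPM in control (median 0.809) and from 2.36 to 5.18 CPM in MCD livers (median 3.503). The groups were fully separate, and the lowest control value was that of replicate 12, which held 1 read. Plod2 rose by 2.20 on the log2 scale (SE 0.21, edgeR FDR 1.57e-09), or 4.61-fold, and the estimate stayed between 2.14 and 2.29 with any 1 library left out. An unconfirmed transcript on the other strand, Gm38391, covers 6.42% of its exon bases.

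Plod1 (ENSMUSG00000019055, chr4:147909753-147936767) encodes the lysyl hydroxylase of the triple-helical part of the chain, and its loss causes the kyphoscoliotic form of Ehlers-Danlos syndrome. It had the highest level per kilobase of the 10 genes in control livers. Its levels ran from 67.9 to 110 CPM in control (median 82.0) and from 62.9 to 86.1 CPM in MCD livers (median 68.9). The highest control library was replicate 12, and 3 MCD libraries lay below every control. The difference was -0.22 on the log2 scale (SE 0.07), and although the edgeR FDR was 0.00705, the difference was too small for the fold limit. Its sign depended on the scaling, being 0.15 (FDR 0.064) with total counts alone.

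Against each other, the log2 ratio of Plod2 to Plod1 was 2.54 higher in MCD livers (adjusted permutation p = 6e-05), and all 12 MCD libraries lay above every control. Even so, Plod2 remained the minor form, with 0.683% ± 0.28 of the family's CPM per kilobase in control and 3.19% ± 0.86 in MCD livers. Plod3, the third lysyl hydroxylase, which also transfers sugars onto hydroxylysine, was at 0.09 (SE 0.09, edgeR FDR 0.408). Of its exon bases 11.7% are shared with the protein-coding Znhit1 on the other strand, which touches the sum and the shares of this family. The summed level of the 3 lysyl hydroxylases was 22.2 ± 3.24 CPM per kilobase in control and 21.6 ± 1.70 in MCD livers (SD, n = 12 each).

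The alpha subunits of prolyl 4-hydroxylase moved apart as well, by smaller amounts. P4ha1 (ENSMUSG00000019916, chr10:59323296-59373304) encodes the main catalytic subunit in most tissues. It ranged from 5.95 to 10.7 CPM in control (median 9.13) and from 10.4 to 17.0 CPM in MCD livers (median 12.3). The groups met in 1 library each, since control replicate 12 lay just above the lowest MCD library. P4ha1 rose by 0.55 on the log2 scale (SE 0.10, edgeR FDR 2.87e-05), close to the limit of 0.5, and the estimate ran from 0.50 to 0.62 when 1 library was left out. With total counts alone it was 0.92.

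P4ha2 (ENSMUSG00000018906, chr11:54100095-54131665), the second catalytic subunit, which is prominent in cartilage and endothelium, did not rise. Control livers ranged from 4.95 to 8.97 CPM (median 7.35) and MCD livers from 3.83 to 7.32 CPM (median 6.01). The groups overlapped, although 5 MCD libraries lay below every control. The difference of -0.34 on the log2 scale (SE 0.12, edgeR FDR 0.0162) did not pass and moved to 0.02 (FDR 0.89) with total counts alone. The log2 ratio of P4ha2 to P4ha1, which does not depend on scaling, was lower in MCD livers, with a difference of -0.92 (adjusted permutation p = 3.27e-05). On this ratio 10 of 12 MCD libraries lay below every control. A rise of P4ha1 alone also lowers the ratio, so it does not tell whether P4ha2 fell. Per kilobase, P4ha1 made up 64.3% ± 5.09 of the alpha subunits in control and 74.6% ± 4.43 in MCD livers. P4ha3, the third alpha subunit, was too low to be tested, at 0 to 0.151 CPM in control and 0.109 to 0.837 CPM in MCD livers. P4hb, the beta subunit shared by all 3 and also an abundant protein disulfide isomerase, was at 943 to 1807 CPM in control and 1376 to 1955 CPM in MCD livers, a difference of 0.08 on the log2 scale (SE 0.10, edgeR FDR 0.488).

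Serpinh1 (ENSMUSG00000070436, chr7:99345376-99353239), whose product HSP47 prevents the aggregation of procollagen, ranged from 12.3 to 32.2 CPM in control (median 18.6) and from 50.6 to 114 CPM in MCD livers (median 67.7). The groups were fully separate, and MCD replicate 8 was again the highest. Serpinh1 rose by 1.83 on the log2 scale (SE 0.17, edgeR FDR 6.6e-10), or 3.56-fold, with a 95% interval of 2.80 to 4.51. In MCD livers it had the highest level per kilobase of the 10 genes, and its range there (20.7 to 46.5) did not meet that of Plod1, the next gene (9.29 to 12.7).

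Pcolce (ENSMUSG00000029718, chr5:137605103-137613784), which speeds the removal of the C-propeptide, ranged from 7.03 to 26.2 CPM in control (median 12.9) and from 24.1 to 43.7 CPM in MCD livers (median 29.4). The groups met through control replicate 12 alone, which lay above 3 MCD libraries. Pcolce rose by 1.10 on the log2 scale (SE 0.17, edgeR FDR 2.98e-06). Exons of Fbxo24 on the same strand share 2.93% of its exon bases, so a few reads could belong to either gene.

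**Figure D3:**
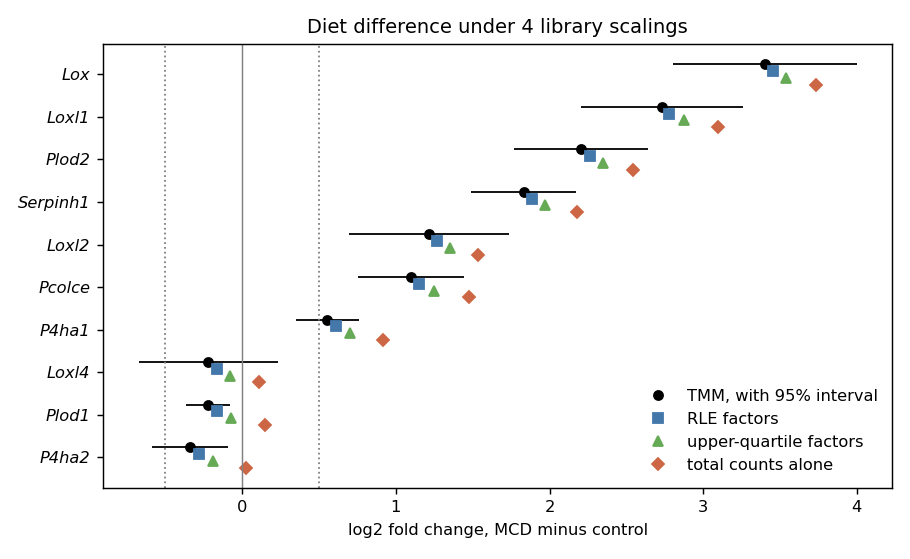
Log2 fold change (MCD minus control) of the 10 genes with TMM factors (black, with 95% interval) and with 3 other library scalings. Dotted lines mark the fold limit of 0.5 in either direction; the 7 genes at the top stay right of it under each scaling, whereas Loxl4, Plod1 and P4ha2 pass from the left of 0 to the right when total counts alone are used.

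Ordered by median CPM per kilobase, control livers ran from Plod1 through Serpinh1, Pcolce, P4ha1, Loxl1, P4ha2, Loxl2, Loxl4 and Plod2 to Lox. The ranges of all neighbors in this order overlapped. In MCD livers the order was Serpinh1, Plod1, Loxl1, Pcolce, P4ha1, Loxl2, Lox, P4ha2, Plod2 and Loxl4. Here Serpinh1 and Plod1, Pcolce and P4ha1, P4ha1 and Loxl2, and Plod2 and Loxl4 were separated without overlap, and the other neighbors were not. Lox therefore stood last in control and the seventh in MCD livers, level with P4ha2 (medians 0.982 and 0.963 CPM per kilobase). The coefficient of variation was larger in control than in MCD livers for 9 of the 10 genes, and it was for 90% of all tested genes, so that nothing is read from this count. P4ha2 was the exception (14.8% and 23.2%).

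The study was concerned with collagen production, so the genes were next set against their substrates. Of 12 fibrillar collagen and elastin genes, 9 were expressed enough to be tested. Col1a1 rose by 2.88 (SE 0.35), Col1a2 by 2.34 (SE 0.28) and Col3a1 by 2.11 (SE 0.30) on the log2 scale. Eln, which encodes elastin, rose by 3.26 (SE 0.37), Col5a2 by 1.85 (SE 0.37) and Col5a1 by 1.07 (SE 0.17). The Col5a2 value rests in part on control replicate 4, which at 37.8 CPM lay above every MCD library (22.2 to 35.1 CPM) and far from the control median of 3.80 CPM, and without it the log2 fold change was 2.56. The edgeR FDR was at most 8.92e-05 for these 6 genes. Col5a3 fell, at -1.29 (SE 0.28, edgeR FDR 0.000314). Col27a1, at -0.81 (SE 0.25, edgeR FDR 0.00649), passed narrowly and did not with RLE factors (FDR 0.0116) or in 16 of the 24 fits that left out 1 library. Col11a2 was at -0.45 (edgeR FDR 0.0901). The log2 fold changes of Lox and Eln, an enzyme and one of its substrates, were of similar size.

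Relative to the summed reads of Col1a1, Col1a2 and Col3a1 in the same library, 7 of the 10 genes were lower in MCD livers, 1 was higher and 2 did not pass (two-sided permutation tests, adjusted p of 0.05). The mean of this ratio was lower in MCD livers for 97.4% of all tested genes. Among the 10, the drop was largest for P4ha2, at -3.11 on the log2 scale, followed by Plod1 at -2.97, Loxl4 at -2.87, P4ha1 at -2.20, Pcolce at -1.57 and Loxl2 at -1.29. For these 6 genes every MCD library lay below every control library, and the adjusted permutation p was 3.27e-05, which comes from the smallest p the resamples can give (2e-05). The denominator itself rose with the diet, and 72.1% of the 14109 tested genes had every MCD library below every control library on this ratio, with a median difference of -2.82 on the log2 scale over all tested genes. The 6 of 10 therefore lie near that background, and a lower ratio is no result about these genes. Every MCD library lay above every control library for 0.12% of the tested genes and for none of the 10.

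Serpinh1 was at -0.87 (adjusted permutation p = 0.000257). Its ratio had an SD of 0.105 on the log2 scale among MCD livers and 0.766 among control livers. All 10 ratios had the smaller SD in MCD livers, as did 99.4% of the tested genes, so this contrast between diets is not particular to Serpinh1. Plod2 was at -0.43 (adjusted permutation p = 0.252). It passed as lower without control replicate 12, in which it had 1 read (-0.68, adjusted permutation p = 0.0173), with a pseudocount of 5 (-0.87, adjusted permutation p = 0.00727) and with Col1a1 alone as the denominator (-0.999, adjusted permutation p = 0.0281). Loxl1 was at 0.10 (adjusted permutation p = 0.612), and its groups lay on top of each other. With Col1a1 alone as the denominator it was at -0.47 (adjusted permutation p = 0.0241). Lox was the only gene with a higher ratio, at 0.97 (adjusted permutation p = 0.00504), all 12 MCD libraries lying above the control median. This difference was 0.13 (adjusted permutation p = 0.715) with a pseudocount of 5 and 0.41 (adjusted permutation p = 0.265) with Col1a1 alone.

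**Figure D4:**
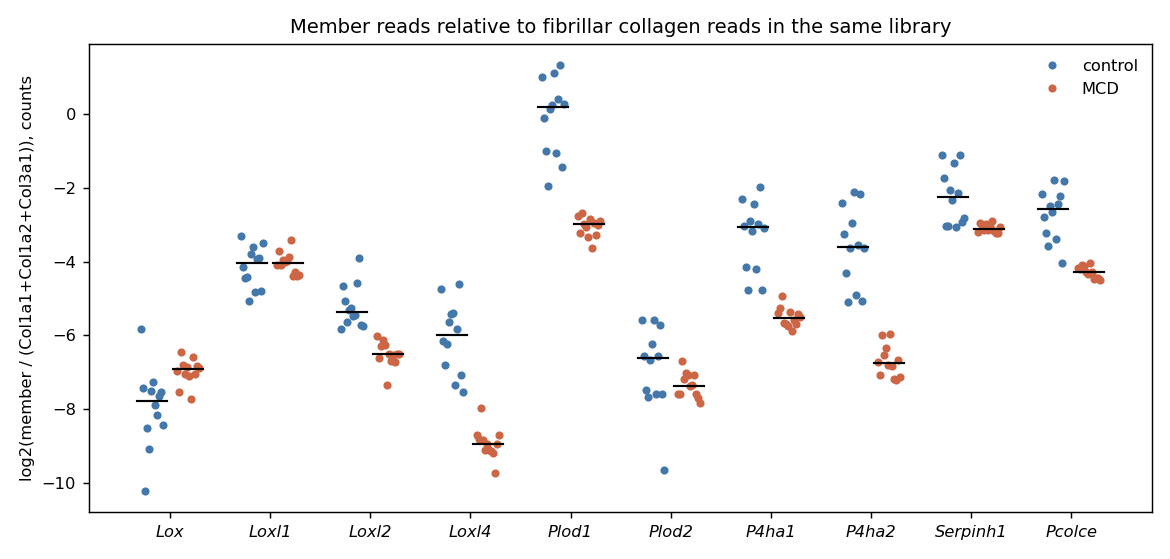
Log2 ratio of each gene's counts (plus 0.5) to the summed counts of Col1a1, Col1a2 and Col3a1 in the same library, 1 point per library in control (blue) and MCD (orange) livers with a line at the median. Loxl2, Loxl4, Plod1, P4ha1, P4ha2 and Pcolce are fully separate and lower in MCD livers, the Loxl1 groups coincide, and all 10 genes spread less among MCD than among control livers.

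Animals on the same diet also differed in collagen, and the genes were compared with Col1a1 separately for each diet, because control and MCD livers did not overlap in Col1a1 (20 relations, permutation p with 100000 resamples, adjusted over the 20). In control livers Col1a1 ranged from 6.56 to 74.7 CPM. Loxl1 followed it most closely (Pearson's r = 0.927, adjusted permutation p = 0.0002; Spearman's rho = 0.888, adjusted permutation p = 0.0025), followed by Pcolce (r = 0.855, adjusted permutation p = 0.0038; rho = 0.867, adjusted permutation p = 0.003). Both held after removing the 2 livers whose Col1a1 lay farthest from the median (r = 0.884 and 0.887, adjusted permutation p = 0.00953 and 0.0059). Loxl2 (r = 0.793, adjusted permutation p = 0.0088; rho = 0.811, adjusted permutation p = 0.0112) and Serpinh1 (r = 0.727, adjusted permutation p = 0.0273; rho = 0.713, adjusted permutation p = 0.0303) passed over all 12 livers but not over the remaining 10 (r = 0.706 and 0.490, adjusted permutation p = 0.0806 and 0.332). Among the other 14108 tested genes, 2.6% had an r with Col1a1 in control livers at or above that of Serpinh1, the lowest of these 4. Plod2 had r = 0.198 (adjusted permutation p = 0.655) and rho = 0.713 (adjusted permutation p = 0.0303), and r was 0.906 (adjusted permutation p = 0.000533) without control replicate 12, a library left out after its values were seen.

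In MCD livers Col1a1 ranged from 158 to 311 CPM, and Serpinh1 followed it most closely (r = 0.933, adjusted permutation p = 0.0002; rho = 0.958, adjusted permutation p = 0.0004). The relation held without the 2 farthest libraries (r = 0.957, adjusted permutation p = 0.0018). Pcolce (r = 0.792, adjusted permutation p = 0.0078; rho = 0.762, adjusted permutation p = 0.0217) and Loxl1 (r = 0.764, adjusted permutation p = 0.00868; rho = 0.734, adjusted permutation p = 0.029) also passed. Of the other tested genes, 2.52% had an r at or above that of Loxl1 in MCD livers. Without the 2 farthest libraries their r was 0.680 and 0.745 (adjusted permutation p = 0.0911 and 0.0645), so that neither passed over the remaining 10 livers, although r for Loxl1 moved little. Leaving out MCD replicate 8 alone, the liver with the most Loxl1, Serpinh1 and Pcolce, left only Serpinh1 past the threshold. Lox, which differed most between the diets, had an r of 0.547 in control (adjusted permutation p = 0.133) and 0.196 in MCD livers (adjusted permutation p = 0.629). With total counts alone as the scaling, 5 genes in place of 3 passed in MCD livers and 6 in place of 4 in control livers, Plod1 and P4ha1 being added in both, while the share of other tested genes at or above the lowest r that passed was then 13.9% in MCD and 7.38% in control livers. The correlations of the 10 genes with Col1a1 were not tested for a difference between the diets.

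**Figure D5:**
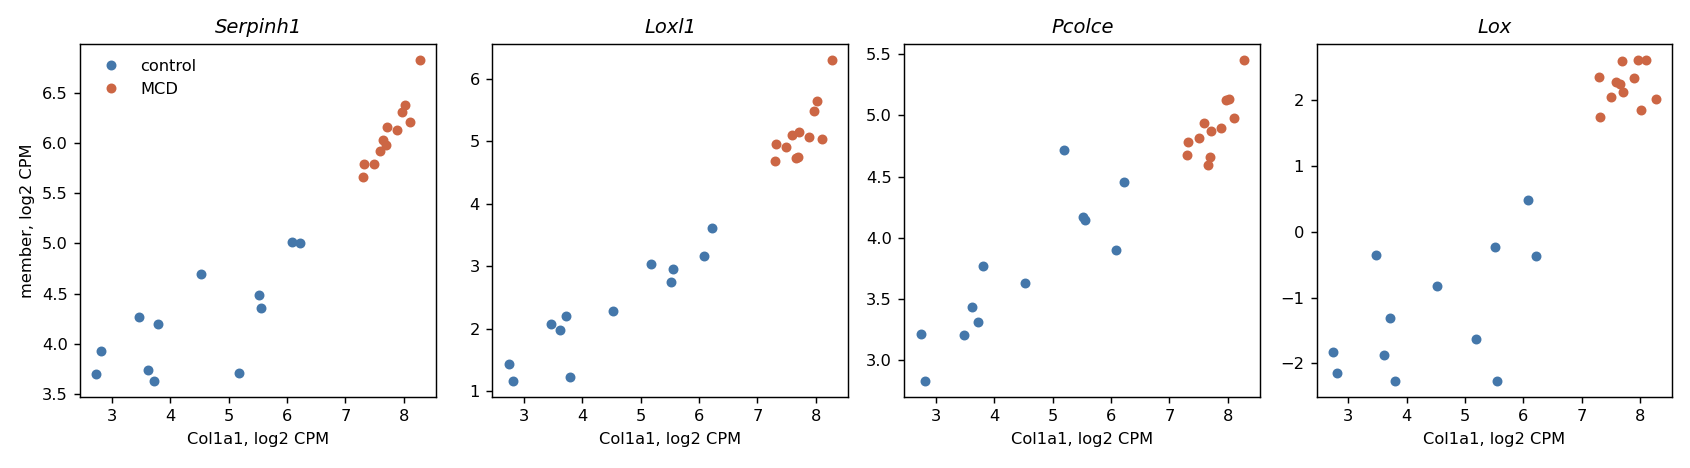
Log2 CPM of Serpinh1, Loxl1, Pcolce and Lox against log2 CPM of Col1a1, 1 point per library in control (blue) and MCD (orange) livers. Serpinh1 climbs with Col1a1 along a narrow line in MCD livers (r = 0.933), while Lox shows no clear trend there (r = 0.196).

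A wider search described which genes varied most like each member from animal to animal, using log2 CPM centered within each diet over all 24 libraries. The figures are given without a test. For Loxl1 the nearest patterns were those of Adamts2, the procollagen N-proteinase (r = 0.96), of Col6a2 (r = 0.95) and of the collagen uptake receptor Mrc2 (r = 0.93). For Pcolce they were Efemp2 (r = 0.93), whose product fibulin-4 tethers lysyl oxidase to elastic fibers, Vim (r = 0.93) and Smtn (r = 0.91). For Serpinh1 they were Fstl1 (r = 0.90), Sspn (r = 0.90) and the collagen-binding Sparc (r = 0.88). Loxl2 was nearest to Sh3pxd2b (r = 0.86), Itpripl2 (r = 0.85) and the basement membrane collagen Col4a1 (r = 0.83). Over these 12 pairs the lowest r with any 1 library left out was 0.787.

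The other 6 had mostly looser or less stable neighbors, an exception being Plod2 with Abca9 (lowest r 0.875 with 1 library left out). Lox was nearest to Syt12, Kctd17 and Pawr (r = 0.79 to 0.76). P4ha1 was nearest to Skida1, the glycolytic regulator Pfkfb4 and Pdlim2 (r = 0.75 to 0.72), and P4ha2 to the acute-phase gene Lbp, Lrrc75a and Cyp2c38 (r = 0.77 to 0.73). For Plod2 (Abca9, Mturn and Sept11), Plod1 (Snrpn, Gstm4 and Hfe2) and Loxl4 (Pgm2, C2cd5 and Nedd9) the highest r values were 0.95, 0.81 and 0.80. The lowest r after leaving out 1 library came from omitting control replicate 12 in each of these 9 pairs, and for Plod2 and Sept11 it went from 0.90 to 0.66. Between members, the closest pair was Loxl1 and Pcolce (r = 0.83, and 0.84 without control replicate 12). For Plod1 and Plod2 r was -0.52, a value that rests on control replicate 12, since it was -0.02 without that library.

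The remaining genes of the pathway were read from a list of 33, of which 28 were tested, 13 rose and 6 fell, beside the 19.2% and 19.1% of all tested genes. Their median log2 fold change was 0.34. With total counts alone 19 genes of this list were higher and 1 lower. Within the endoplasmic reticulum, some partners of the lysyl hydroxylases were among the risers. Fkbp10, whose product FKBP65 is needed for telopeptide hydroxylation by the Plod2 enzyme, ranged from 1.17 to 5.20 CPM in control and from 8.32 to 17.4 CPM in MCD livers (log2 fold change 2.11, SE 0.20, edgeR FDR 1.19e-09). Of the other FKBP genes listed, Fkbp7 rose by 0.56 (edgeR FDR 0.00179) and Fkbp14 fell, at -0.64 (edgeR FDR 0.000199). P3h3 and P3h4, which form a complex with the Plod1 enzyme, rose by 1.55 and 1.60 (edgeR FDR 1.22e-09 and 4.63e-09). In the prolyl 3-hydroxylation complex, Crtap rose by 1.30 (edgeR FDR 7.93e-09), while its catalytic partner P3h1 was at 0.28 (edgeR FDR 0.000413, below the fold limit) and the cyclophilin Ppib at 0.08 (edgeR FDR 0.653). Both were past the limits with total counts alone.

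Later steps were also split. Mrc2 rose by 2.81 (SE 0.22), Fmod, a collagen-binding proteoglycan that interacts with lysyl oxidase, by 2.16 (SE 0.24), and Sparc by 1.69 (SE 0.17), each with an edgeR FDR of at most 1.74e-08. The N-proteinase Adamts2 rose by 1.61 (SE 0.20, edgeR FDR 1.66e-07), with every MCD library above every control. The C-proteinase Bmp1, the enzyme that the Pcolce product assists, was at -0.55 (SE 0.10, edgeR FDR 2.79e-05), and the call was lost without control replicate 12 or without MCD replicate 2, 6, 7 or 8 (-0.4996 to -0.472), with RLE factors (-0.49) and with total counts alone (-0.19). The paralog Pcolce2 was lower, at -1.37 (SE 0.27, edgeR FDR 7.92e-05), from 0.649 to 3.44 CPM in control to 0.291 to 1.39 CPM in MCD livers. Pcolce and Pcolce2 thus moved in opposite directions, under every scaling. Mia2 and the chaperone Hsp90b1 also fell, with log2 fold changes of -0.81 and -0.65 (edgeR FDR 1.2e-07 and 8.96e-09), but with total counts alone both were within the fold limit (-0.47 and -0.29). Loxl3, the fifth lysyl oxidase, rose by 1.08 (SE 0.17, edgeR FDR 3.47e-06).

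The hydroxylases need iron, oxoglutarate and ascorbate, and the lysyl oxidases need copper. In a list of 14 genes for these cofactors, 7 fell and 1 rose, beside 19.1% lower and 19.2% higher over all tested genes, with a median of -0.64. The ascorbate transporter Slc23a1 fell most, from 41.8 to 119 CPM in control to 17.6 to 48.3 CPM in MCD livers (log2 fold change -1.61, SE 0.16, edgeR FDR 3.14e-09). Rgn, which encodes the gluconolactonase of ascorbate synthesis, was at -1.22 (SE 0.16, edgeR FDR 1.98e-07) with all 12 MCD libraries below every control. Gulo, which encodes the last enzyme of that synthesis, was at -0.08 (edgeR FDR 0.538), its sign turning with upper-quartile factors (0.07). Of the copper pumps, Atp7b, the hepatocyte exporter, was at -0.90 (SE 0.15, edgeR FDR 9.92e-06), and Atp7a, which loads copper onto secreted lysyl oxidases, was at -0.66 (SE 0.33, edgeR FDR 0.0799). The transferrin receptor Tfrc was the 1 gene that rose, by 0.62 (SE 0.19, edgeR FDR 0.00591), and it no longer passed when any of 6 single libraries was left out. With total counts alone the counts for this list were 3 lower and 5 higher.

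P4ha1, P4ha2, Plod2 and Lox are known hypoxia-inducible genes. Of 15 tested genes of a hypoxia-inducible list without them, 3 rose and 3 fell, close to the 19.2% and 19.1% of all tested genes, and the median was -0.26. The risers were Adm (1.51), Ndrg1 (1.21) and the glucose transporter Slc2a1 (0.89), and the genes that fell were Pdk1 (-1.82), Vegfa (-0.76) and Egln3 (-0.69), all with an edgeR FDR of at most 1.69e-05. Serpinh1 is also a heat shock gene. Among 12 heat shock genes, 3 rose, Hspa1a by 1.92, Cryab by 1.74 and Hspa1b by 0.68, and 3 fell, Hsph1 (-0.66), Dnaja1 (-0.57) and Hspd1 (-0.54), with an edgeR FDR of at most 0.000952 and a median of -0.23. Dnaja1 fell short of the fold limit without control replicate 1 or MCD replicate 2 (-0.50 each), and Hspd1 did so in 8 of the 24 fits that left out 1 library (-0.50 to -0.48). These counts too were near the 19.2% and 19.1% called over all genes. Protein-coding genes on the other strand cover 19.0% of the exon bases of Hspa1a (Gm20481) and 17.0% of those of Cryab (Hspb2). With total counts alone, 4 hypoxia-inducible genes were higher and 1 lower, and 4 heat shock genes were higher and 0 lower.

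Markers of collagen-producing cells and of other cell types moved with diet, and their part in the results above was not tested. Over all tested genes, 19.2% were called higher and 19.1% lower. Of 6 myofibroblast markers 5 rose, and their summed level went from 103 to 260 CPM in control to 293 to 478 CPM in MCD livers. Much of that sum is Dcn (73.5 to 198 and 182 to 267 CPM), which the study uses as a marker of activated stellate cells. Acta2 rose with overlapping ranges (0.846 to 5.71 and 2.42 to 7.68 CPM), and Postn did not rise. Of 5 tested portal fibroblast markers 3 rose (10.3 to 27.5 and 28.9 to 48.9 CPM). Of 7 stellate cell markers 2 rose and 1 fell, with overlapping sums (101 to 238 and 153 to 229 CPM). All 5 monocyte-derived macrophage markers rose (19.8 to 76.8 and 621 to 1318 CPM), as did all 5 cholangiocyte markers (3.71 to 14.9 and 41.5 to 98.1 CPM) and 2 of 5 lymphocyte markers (2.93 to 10.8 and 8.24 to 16.2 CPM). Of 6 endothelial markers 5 fell (190 to 283 and 105 to 175 CPM), and 4 of 5 Kupffer cell markers fell (137 to 423 and 81.3 to 297 CPM). The calls of the endothelial Clec4g and the Kupffer cell marker Vsig4 were lost in 13 and 9 of the 24 fits that left out 1 library. Of 6 hepatocyte markers 2 fell, with sums of 74620 to 171329 and 56829 to 82372 CPM, so that the tissue was liver by its markers in every library. Cps1 and Hnf4a, at -0.49 each, were just short of the fold limit and were called lower in 7 and 6 of the 24 fits that left out 1 library. Of 2 tested smooth muscle markers 1 fell (list sum 42.2 to 153 and 60.6 to 94.9 CPM). That gene, Myh11, was no longer called in 4 of the 24 fits that left out 1 library. Among defining markers, Timp1, Gpnmb and Ms4a1 were at 0 in 1 library each, Cftr in 3, and Cnn1 and Actg2 in 2 each.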

How the data were processed

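The data are poly(A) RNA-seq of whole liver, 24 libraries and 12 per diet. The authors deposited unnormalized whole-number read counts by Ensembl gene, made after alignment with STAR 2.7.3a to mm10 per the labels' processing notes. For the mouse libraries, the counting program, its annotation and its strand setting are not given in the sources used here. The study names a stranded mRNA kit without saying for which libraries. It names the exon quantification pipeline and PISCES for reads aligned to the human genome. Symbols, coordinates and exon lengths were taken from GENCODE mouse release 21 (GRCm38), promoter windows from RefSeq, and rows without a symbol held 0.0808% of counts.

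Low genes were removed (edgeR's filterByExpr, grouped by diet), and libraries were scaled with TMM factors. edgeR 4.0.16 (glmQLFit and glmQLFTest, R 4.3.3) compared the diets over all 24 libraries without covariates, at an FDR of 0.01 and an absolute log2 fold change above 0.5, limits that the study used for liver. p-values were adjusted over all 14109 genes tested. Libraries were taken as separate animals from the design text. SEs were derived from the log2 fold change and the F statistic. Log2 CPM used a prior count of 2 and read ratios a pseudocount of 0.5. Permutation tests were two-sided (scipy 1.17.1), and intervals are at 95%. A floor of 3 counts covers counting error only.

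The members and lists were chosen with earlier results of these data known. The text names all 10 members, up to 4 largest called rises and 3 largest called falls per list, every tested substrate, and the 3 nearest patterns per member among tested genes with a mean of at least 1 CPM. Other genes outside this rule (such as Loxl3, Plod3, P4hb, P3h1, P3h3, P3h4, Crtap, Ppib, Fkbp7, Fkbp14, Adamts2, Bmp1, Gulo and Atp7a) and low genes such as P4ha3 were named after their values were seen. Alternatives were RLE, upper-quartile and total-count scaling, other count filters, DESeq2 1.42.0, limma-voom (limma 3.58.1), blocking on replicate number, a sex-linked score (Xist against Y-linked genes) as covariate with no library assigned a sex, other call limits, and leaving out each library. On counts simulated for this comparison over 13532 genes, edgeR recovered 88 of 100 genes changed by 1 and 89 of 100 changed by 2 on the log2 scale, with 2 false calls. The measured libraries gave far more calls, 2712 higher and 2688 lower. How library scaling bears on false calls was not tested.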

Additional observations from a re-analysis of the deposited data

How the results depend on the processing

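All 7 genes that rose were called in every fit in which they were tested, apart from P4ha1 under a log2 limit of 1. With at least 10 counts required in every library, Lox, Loxl4 and Plod2 were not tested and 5 of the other 7 rose. In the 24 fits that each left out 1 library, 7 rose and 0 fell each time. Without a fold limit and at an FDR of 0.05, 2 fell (Plod1 and P4ha2). The scaling with total counts alone turned Loxl4 (0.11), Plod1 (0.15) and P4ha2 (0.024), and Gulo turned with total counts (0.32), upper-quartile factors (0.074), the filter of 10 counts (0.0026) and with single libraries left out (-0.125 to 0.025, the latter without control replicate 12). The Loxl1 ratio to collagen turned with Col1a1 alone (-0.47), and r of P4ha2 with Col1a1 in MCD livers, at 0.043, was -0.187 without MCD replicate 8. The cause was not tested.

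Over all genes, 2712 were higher and 2688 lower. Higher calls numbered 4539 with total counts alone and 1801 with the filter of 10 counts. Lower calls numbered 848 with total counts alone, 1710 with upper-quartile factors, 686 with a log2 limit of 1 and 5221 without a fold limit at an FDR of 0.05, and 2228 to 2812 with 1 library left out. Higher calls made up 50.2% of all calls, against 84.3% and 65.6% under total-count and upper-quartile scaling and 73.1% with a log2 limit of 1. Of the pathway list, 6 genes fell, against 1 with a log2 limit of 1 or total counts alone and 3 under upper-quartile scaling or the filter of 10 counts. Of the substrates 2 fell, and 1 did under the log2 limit of 1, RLE, upper-quartile or total-count scaling, the filter of 10 counts, limma-voom and the replicate block, or with 1 library left out (1 to 2), Col27a1 being the gene lost. Of the cofactor list 1 rose, against 0 with a log2 limit of 1, 2 with upper-quartile factors, 5 with total counts alone, 4 without a fold limit and 0 to 1 with 1 library left out, and 7 fell, against 2 with a log2 limit of 1 and 3 with total counts alone. Of the hypoxia-inducible list 3 fell, against 1 with a log2 limit of 1 or total counts alone and 7 without a fold limit. Of the heat shock list 3 fell, against 0 with a log2 limit of 1 or total counts alone, 1 with upper-quartile factors or the filter of 10 counts, 7 without a fold limit and 1 to 3 with 1 library left out. The number of genes with a higher ratio to collagen was 1, and 0 with a pseudocount of 5 or Col1a1 alone. Relations with Col1a1 that passed in MCD livers numbered 3, against 5 with total counts alone and 1 to 3 with control replicate 12 or MCD replicate 8 left out, alternatives chosen after seeing the data.

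Same-numbered libraries correlated above 0.1 in 10 of 12 numbers, and 1 of 12 libraries was nearest to its own number, so the numbers were not taken as pairs. With the replicate block, 7 members rose and 0 fell, and over all genes 2781 rose and 2430 fell. Depth limits Lox most, which had under 10 counts in 8 of 12 control libraries.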
